A study of Homo sapiens with 3 samples.

Results

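The genes described here are long non-coding RNA (lncRNA) genes, selected on having 150 or more counts summed over all 9 libraries of a PC3-Luc knockdown series: 107 genes, out of 4850 genes of the lncRNA class and 21726 genes of all classes in the deposited table. The summed count alone chose them, with no regard to the line a count came from. PC3 cells come from a bone metastasis of a prostate cancer and grow without androgen, and PC3-Luc cells carry luciferase from pMSCV-luc. The lines were sh718 and sh720, which express short hairpin RNAs against CTHRC1, and shCtrl, which expresses a control hairpin. Each had 3 libraries, and all 3 lines carry the luciferase vector. CTHRC1 encodes a secreted glycoprotein linked to cell migration, and the series concerns its part in bone metastasis. The sources used here do not say whether a line is 1 clone or a pool, or whether its 3 libraries are separate cultures. Every p-value therefore sets a difference between lines only against the spread of libraries within lines, and that spread may be technical.

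lncRNAs are transcripts longer than the short regulatory RNAs that do not encode a known protein. Some act in the nucleus as scaffolds of nuclear bodies or on chromatin near their own gene, some bind proteins or microRNAs in the cytoplasm, and others are mainly the spliced remains of a transcript whose introns or exons release small nucleolar RNAs (snoRNAs, guides for chemical modification of ribosomal RNA) or microRNAs. Many start next to a protein-coding gene on the other strand, either head to head from a shared promoter region or as an antisense transcript. In prostate cancer the class is known through MALAT1, NEAT1 and androgen-regulated transcripts.

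The start regions of 4 members are shown first, as examples of different patterns: a member higher with both hairpins (MALAT1), one higher in sh720 (SNHG1), one lower in sh718 (BMPR1B-DT) and one that moved in opposite directions (LINC01721). Sequences are RefSeq promoter windows on GRCh38.p14, 5′ to 3′ on the gene's own strand, and the capitals mark the first 50 transcribed bases. The windows lie at chr11:65497488-65497787 on the plus strand (MALAT1), chr11:62855836-62856135 on the minus strand (SNHG1), chr20:24199517-24199816 on the plus strand (LINC01721) and chr4:94757484-94757783 on the minus strand (BMPR1B-DT).
MALAT1: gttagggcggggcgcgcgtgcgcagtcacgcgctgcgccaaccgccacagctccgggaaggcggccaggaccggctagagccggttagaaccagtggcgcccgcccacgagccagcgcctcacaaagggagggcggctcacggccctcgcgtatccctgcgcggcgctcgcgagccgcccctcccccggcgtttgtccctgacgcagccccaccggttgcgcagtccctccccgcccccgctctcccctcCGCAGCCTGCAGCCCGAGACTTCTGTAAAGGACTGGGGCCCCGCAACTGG
SNHG1: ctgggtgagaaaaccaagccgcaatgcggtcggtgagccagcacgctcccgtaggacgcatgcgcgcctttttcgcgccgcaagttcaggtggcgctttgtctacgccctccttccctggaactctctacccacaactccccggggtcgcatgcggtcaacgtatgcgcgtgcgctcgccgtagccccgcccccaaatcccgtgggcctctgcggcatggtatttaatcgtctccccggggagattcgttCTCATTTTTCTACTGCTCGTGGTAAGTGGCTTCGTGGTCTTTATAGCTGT
LINC01721: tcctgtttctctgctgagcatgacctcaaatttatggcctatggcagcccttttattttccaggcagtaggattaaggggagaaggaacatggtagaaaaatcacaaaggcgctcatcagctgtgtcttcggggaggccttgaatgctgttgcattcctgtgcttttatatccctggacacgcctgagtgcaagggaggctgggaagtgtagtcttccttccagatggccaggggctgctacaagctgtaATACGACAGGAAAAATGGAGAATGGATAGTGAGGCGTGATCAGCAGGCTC
BMPR1B-DT: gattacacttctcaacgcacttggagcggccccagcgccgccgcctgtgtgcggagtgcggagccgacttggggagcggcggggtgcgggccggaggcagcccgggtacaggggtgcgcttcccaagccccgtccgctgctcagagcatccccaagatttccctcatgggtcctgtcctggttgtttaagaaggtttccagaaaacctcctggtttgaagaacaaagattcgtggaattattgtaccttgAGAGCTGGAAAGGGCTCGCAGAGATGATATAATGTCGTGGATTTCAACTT
RefSeq windows were found for 67 of the 107 members, 96 windows in all, and 5 motifs were searched in them on both strands, none of which contains another. TATAAA stood in the windows of SNHG1 and LINC01721, in both only on the opposite strand (TTTATA as printed). In SNHG1 it lies within the capitals, after the transcript start. It stood in 10.4% of the members' windows against 11.5% of all 35116 windows. CCAAT was in 36.5% of the members' windows and 34.6% of all, ACGTG in 17.7% and 21.4%, TGATGNAA in 2.08% and 3.62%, and TGACGTCA in 1.04% and 1.85%. None of the last 4 motifs was found in the 4 windows printed here.

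snoRNA host transcripts often begin with a tract of pyrimidines, a start shared with messenger RNAs of the translation machinery. The RefSeq start regions of 6 members of this class are given on GRCh38.p14, 5 bases upstream and the first 20 transcribed bases, with the longest run of pyrimidines in capitals. They lie at chr11:62855866-62855890 minus (SNHG1), chr4:52712389-52712413 plus (DANCR), chr1:28581854-28581878 minus (SNHG12), chr20:49278637-49278661 plus (ZFAS1), chr6:85678714-85678738 minus (SNHG5) and chr17:76557759-76557783 plus (SNHG16).
SNHG1: tcgttctcaTTTTTCTactgctcgt
DANCR: gccccgcccttgcccagagTCTTCC
SNHG12: agcgCCCTTTCTCCCCgccgcattc
ZFAS1: tcgTTCTTTCgcgtctgcggtgccc
SNHG5: tcggTCTTTTacgtcggccttcgcg
SNHG16: gtctcgcgTTCTTTTCgaggtcggc
The run was 12 bases in SNHG12, 8 in SNHG16, 7 in SNHG1 and ZFAS1, and 6 in DANCR and SNHG5. The runs of SNHG12, ZFAS1 and SNHG5 span the transcript start, while those of SNHG1 and SNHG16 begin a few bases after it. The run of DANCR lies at the far end of the bases searched, so it may be longer than counted here. No expected run length was computed.

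MIR100HG, the member that was lower in both hairpin lines with the most counts, is the host transcript of a microRNA cluster. The mature 5-prime arms of its cluster are given from RefSeq on GRCh38.p14, all on the minus strand of chromosome 11, with the seed (bases 2 to 8, the part that pairs with targets) in capitals. They lie at chr11:122152275-122152296 (hsa-miR-100-5p), chr11:122146568-122146589 (hsa-let-7a-5p) and chr11:122099809-122099830 (hsa-miR-125b-5p).
hsa-miR-100-5p: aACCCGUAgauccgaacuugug
hsa-let-7a-5p: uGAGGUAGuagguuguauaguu
hsa-miR-125b-5p: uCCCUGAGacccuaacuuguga
The 3 seeds differ, and the mature microRNAs themselves were not measured in these libraries. NORAD, a cytoplasmic RNA that binds the Pumilio proteins, is shown by 200 bases of its transcript (GENCODE v29, bases 2456 to 2655, chr20:36048306-36048505 on the minus strand), with matches to the Pumilio motif TGTANATA in capitals.
NORAD: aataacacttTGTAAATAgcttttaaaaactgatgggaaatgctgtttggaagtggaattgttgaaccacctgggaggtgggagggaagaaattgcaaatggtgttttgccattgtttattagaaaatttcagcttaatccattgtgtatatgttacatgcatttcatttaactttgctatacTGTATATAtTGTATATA
This stretch held 3 of the 15 matches in the NORAD transcript, searched on the transcript's strand. Among the 104 members with a GENCODE v29 transcript, 75 had no match, and the highest number outside NORAD was 10, in LINC00632.

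Library totals ran from 883663 to 1108960 counts, and mitochondrial genome transcripts held 12% to 16.4% of them. CTHRC1 had 2, 2 and 1 counts in sh718 and 18, 19 and 10 in sh720, against 88, 117 and 126 in shCtrl. Of the markers of the labelled cell type, the epithelial keratins KRT8, KRT18 and KRT19 had 1934, 5944 and 7611 counts over all libraries, the epithelial cadherin CDH1 had 15, and KLK3 and KLK2 were not in the table analysed here. All 5 epithelial markers summed to 1584, 2024 and 1776 counts in sh718 and 1955, 1843 and 1875 in sh720, against 1487, 1551 and 1677 in shCtrl. Among them EPCAM, an epithelial adhesion molecule, had 12, 13 and 15 counts in sh718 and 45, 32 and 43 in sh720, against 27, 40 and 41 in shCtrl. KRT8 had 171, 205 and 171 counts in sh718 and 278, 260 and 279 in sh720, against 187, 201 and 182 in shCtrl. The endothelial marker PECAM1 had 43, 51 and 44 counts in sh718, 13, 30 and 16 in sh720 and 23, 19 and 27 in shCtrl, and VWF and CDH5 were not in the table; fibroblast markers summed to between 1 and 7 counts a library and leukocyte markers to between 0 and 2. The part of these differences in the results below was not tested.

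Counts within the class were very unequal. The median lncRNA gene of the table had 3 counts, and 3637 had fewer than 10, while the 107 members ran from 152 to 37525 counts with a median of 276. They held 90319 of 137943 lncRNA counts (65.5%). MALAT1 alone held 41.5% of the members' counts and the first 5 members 56.4%; 13 members had 1000 or more counts and 55 had fewer than 300. At the threshold, SNHG5, RAB11B-AS1 and AC097448.1 had 152 counts and BAIAP2-DT and TMEM99 had 154, while LINC01351 with 149, AC004263.2 and LINC00960 with 148, MIR4435-2HG with 144 and LINC02657 with 142 lay just below it.

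**Figure D1:**
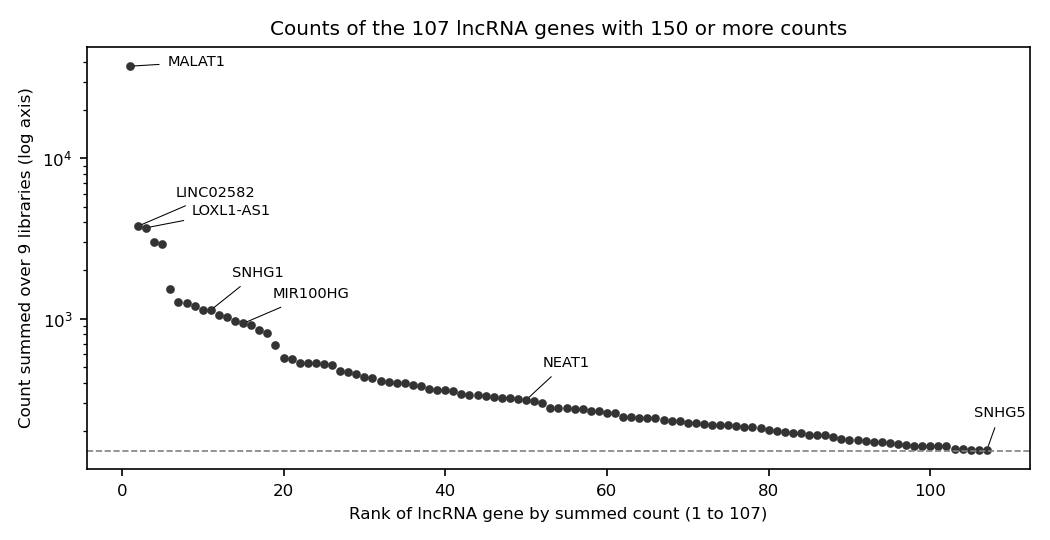
Summed count (log axis) of each of the 107 lncRNA genes against its rank; each point is a gene and the dashed line is the minimum of 150 counts. MALAT1, with 37525 counts, stands above LINC02582 (3775) and LOXL1-AS1 (3688), and SNHG5 (152) lies at the minimum.

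By name, 29 members were antisense transcripts (-AS), 8 were divergent transcripts (-DT), 15 were LINC genes and 17 had clone names only. The members lay on 23 chromosomes. GENCODE v29, in which 104 of them were found, classed 47 as lincRNA, 32 as antisense and 21 as processed transcript, and 1 (TMEM99) as protein-coding. In that annotation 72 members shared exon bases with another gene, 58 of them on the opposite strand and 32 on the same strand, and 38 started head to head within 1000 bases of a coding gene. The sources used here do not give the strand setting of the counting. Whether reads of such a member and its opposite-strand partner were told apart is therefore not known. They also do not say whether poly(A) RNA was selected.

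Per length, MALAT1 also had the highest level: 512 TMM-scaled CPM (counts scaled to library depth) per kb of exon in sh718, 532 in sh720 and 434 in shCtrl. LINC02582 followed in shCtrl, at 185 CPM per kb in sh718, 190.5 in sh720 and 203 in shCtrl, and then AC093673.1, at 198 in sh718, 199.8 in sh720 and 167 in shCtrl. NEAT1, the scaffold RNA of paraspeckles, had only 1.99 CPM per kb in sh718, 1.31 in sh720 and 1.49 in shCtrl over its long exon. The imprinted antisense RNA KCNQ1OT1 had the lowest value in shCtrl, with 0.243 in sh718, 0.326 in sh720 and 0.365 in shCtrl.

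Taking all members at once, their share of a library's counts was 1.01%, 1.01% and 1.03% in sh718 and 1.07%, 1.15% and 1.16% in sh720, against 0.960%, 0.948% and 0.972% in shCtrl. The libraries of both hairpin lines lay above every shCtrl library, and those of sh720 above those of sh718. The totals include mitochondrial transcripts, which held 14.4%, 15.1% and 16.4% of counts in shCtrl. They held 12.7% in sh718 library 2, while sh718 libraries 1 and 3 lay within the shCtrl range. In sh720 the mitochondrial share fell from library 1 to library 3 as the members' share rose. Shares of the counts without mitochondrial transcripts were not computed, so whether the lines stay apart there was not tested. With 3 libraries against 3, the exact permutation test can give no p below 0.1. Without MALAT1 the share averaged 0.584% in sh718, 0.648% in sh720 and 0.583% in shCtrl, so that sh718 and shCtrl differed by less than the spread between libraries (SD 0.0112 and 0.0159). In RNA taken from whole cultures, fewer cells that express a gene and less of its RNA per cell cannot be told apart.

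In sh718 against shCtrl, 23 of the 107 members (21.5%) passed the test (edgeR quasi-likelihood, Benjamini-Hochberg adjusted p under 0.05 over 9556 genes), against 20.4% of all genes tested and 24.1% of genes with 150 or more counts. Of these members 13 were higher and 10 lower, and of all genes tested 9.56% were higher and 10.8% lower. The members' share was thus near that of other genes. In sh720 against shCtrl, 8 members rose and 5 fell (12.1%), against 6.85% of all genes tested (3.43% higher and 3.42% lower) and 8.53% of those with 150 or more counts; this difference in shares was not tested. The median change of the members was 0.06 in sh718 and 0.08 in sh720 on the log2 scale, against 0.00 for all genes tested in each. Changes of 2-fold or more passed the test in 6 members in sh718, against 4.58% of all genes tested, and in 5 members in sh720, against 1.20%. The libraries of the 2 lines compared did not overlap for 39 members (36.4%) in sh718, against 33.5% of all genes tested, and for 33 (30.8%) in sh720, against 23.5%.

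Because both comparisons use the same shCtrl libraries, calls in both are only listed. The members that moved the same way with both hairpins were few: 1 member was higher (MALAT1; 0.858% of all genes tested were) and 2 were lower (MIR100HG and SSTR5-AS1; 1.41% were). LINC01721 moved in opposite directions (0.973% of all genes tested did).

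**Figure D2:**
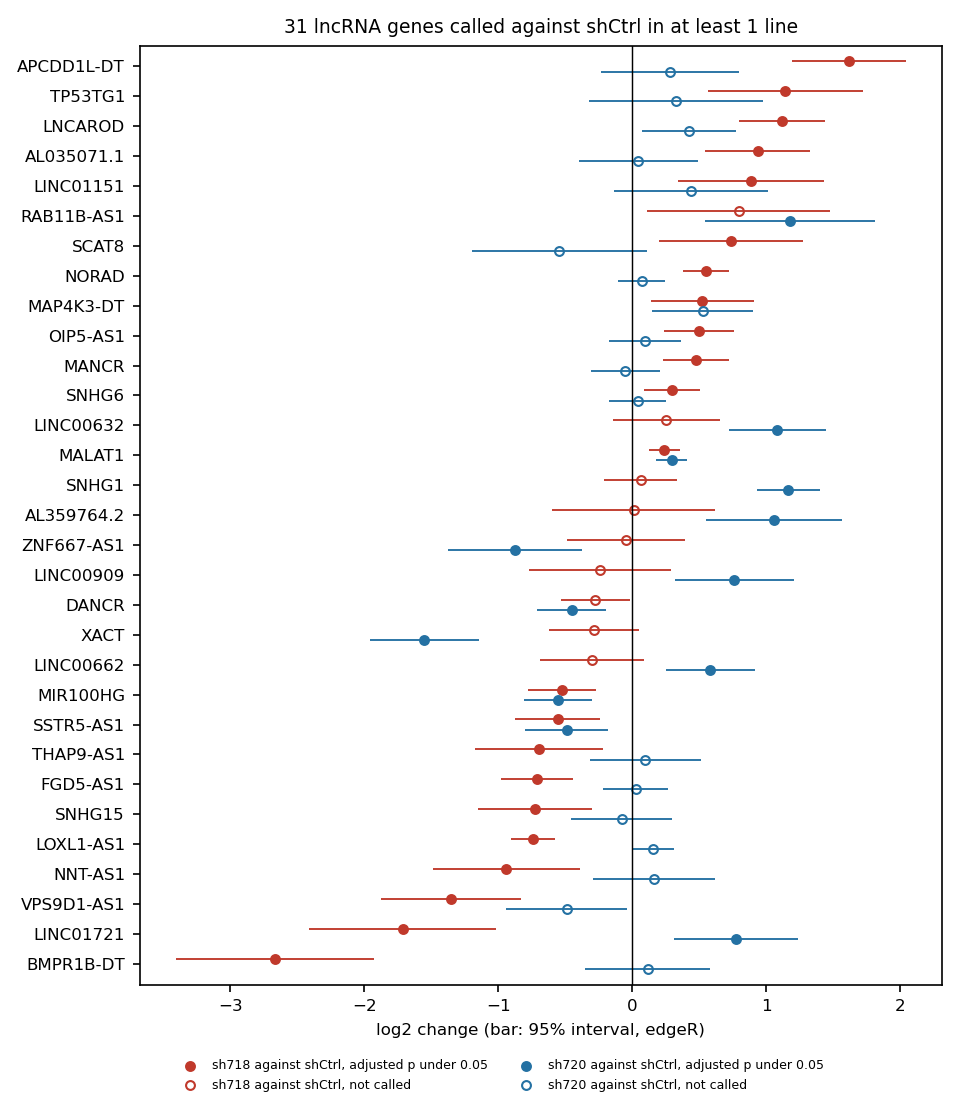
Log2 change with 95% interval (edgeR) of 31 lncRNA genes that passed the test against shCtrl in at least 1 line, sh718 (red) above sh720 (blue) within each gene; filled points have an adjusted p under 0.05. MALAT1, MIR100HG and SSTR5-AS1 are filled on the same side in both lines, LINC01721 on opposite sides, and the outermost points are APCDD1L-DT (1.61) and BMPR1B-DT (-2.66), both in sh718.

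MALAT1 (ENSG00000251562, GRCh38 chromosome 11, 65497688 to 65506516, plus strand), an abundant RNA of nuclear speckles first known as a marker of metastasis in lung adenocarcinoma, had 4426, 4565 and 4572 CPM in the sh718 libraries and 4455, 4771 and 4873 in the sh720 libraries, against 3973, 3553 and 3974 in shCtrl. Every library of both hairpin lines lay above every shCtrl library. The fitted log2 change was 0.24 in sh718 (SE 0.06, adjusted p 0.00117), while sh720 gave 0.29 (SE 0.06, adjusted p 0.000135), increases of under 1.5-fold, and the lines did not pass the test against each other (-0.06, 95% interval -0.17 to 0.06, adjusted p 0.521). Its exons share bases with small RNA annotations and with AP000769.2 on the opposite strand.

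MIR100HG (ENSG00000255248, chromosome 11, 122028327 to 122556721, minus strand), whose microRNAs are printed above, had 114, 75.6 and 98.6 CPM in sh718 and 90.4, 94.6 and 95 in sh720, against 136, 139 and 137 in shCtrl. The shCtrl libraries were tight and lay above all 6 hairpin libraries, while the sh718 libraries were spread. The log2 change was -0.52 in sh718 (SE 0.13, adjusted p 0.00145), while sh720 gave -0.56 (SE 0.13, adjusted p 0.00159). This call, like that of MALAT1, remained with each library left out in turn and with DESeq2.

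SSTR5-AS1 (ENSG00000261713, chromosome 16, 1064093 to 1078731, minus strand) starts head to head with SSTR5, a somatostatin receptor gene, and shares exon bases with AC009041.3 on the opposite strand. It had 53, 55.4 and 47.7 CPM in sh718 and 46.2, 65.5 and 52.4 in sh720, against 67.6, 90.2 and 73.1 in shCtrl. Both hairpin lines lay below shCtrl and overlapped each other, and sh720 library 2 came within a few CPM of shCtrl library 1. On the log2 scale the change was -0.56 in sh718 (SE 0.16, adjusted p 0.00736), while sh720 gave -0.49 (SE 0.16, adjusted p 0.0394). The sh718 call was lost without shCtrl library 2 (adjusted p 0.0800), and the sh720 call was lost without sh720 library 1 or 3 or shCtrl library 2 or 3 (adjusted p 0.0699 to 0.256), without a filter on low counts (0.0610) and with library totals in place of TMM (0.0761); DESeq2 called neither line (0.0827 and 0.257).

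LINC01721 (ENSG00000230133, chromosome 20, 24199767 to 24224588, plus strand) had 7.07, 3.02 and 13.8 CPM in sh718, 47.3, 50.9 and 36.8 in sh720, and 16.9, 24.8 and 35.2 in shCtrl. The sh718 libraries were the lowest, the sh720 libraries the highest, and no 2 lines overlapped, although shCtrl itself spread widely. The log2 change was -1.71 in sh718 (SE 0.35, adjusted p 0.000126), while sh720 gave 0.77 (SE 0.23, adjusted p 0.0258). The rise in sh720 lost its call without sh720 library 1 or 2 or shCtrl library 1 or 2 (adjusted p 0.0968 to 0.218) and with DESeq2 (0.210); the decrease in sh718 did not.

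**Figure D3:**
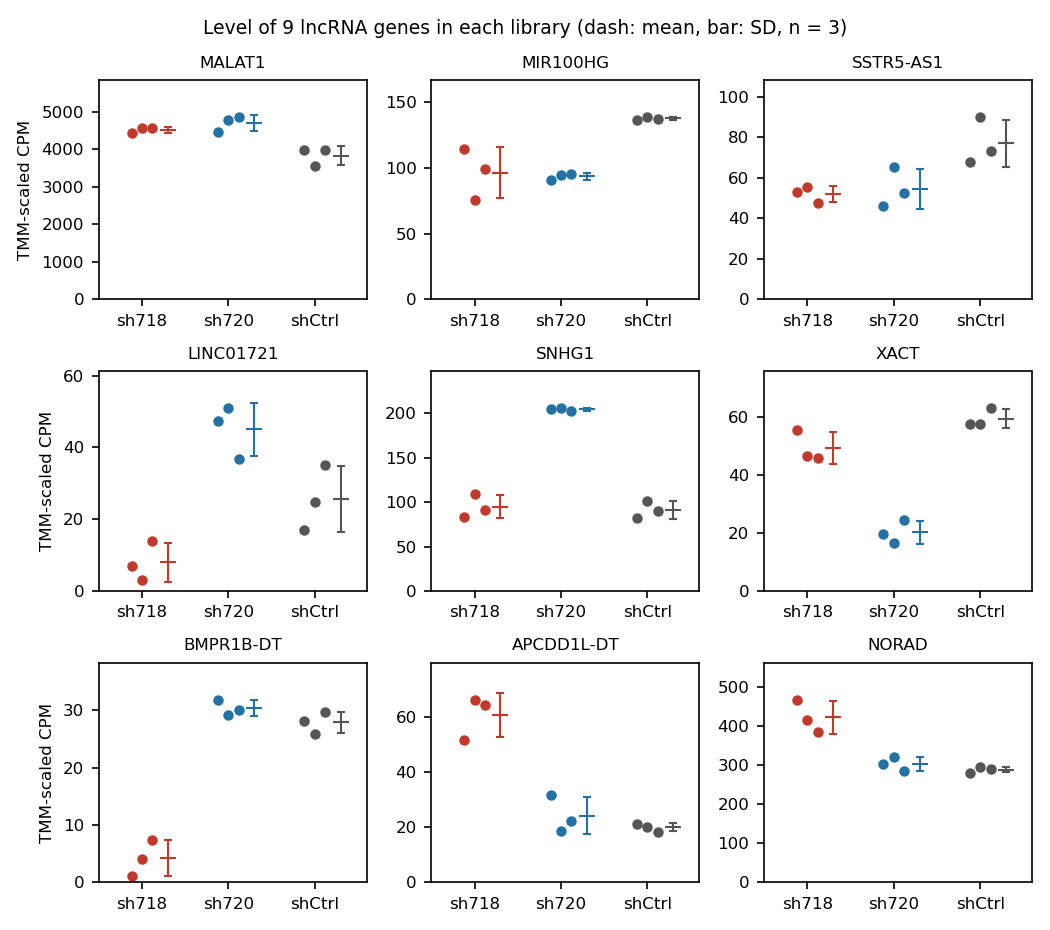
TMM-scaled CPM of 9 lncRNA genes in each library, from left to right sh718, sh720 and shCtrl; dots are libraries, dashes means and bars SD (n = 3), and each axis starts at 0. MALAT1 is higher and MIR100HG lower in both hairpin lines, SNHG1 stands apart in sh720 at 203 to 206 CPM, XACT is low in sh720, and BMPR1B-DT is low and APCDD1L-DT and NORAD high in sh718.

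The strongest decrease of any member was that of BMPR1B-DT (ENSG00000249599, chromosome 4, 94743800 to 94757533, minus strand), a divergent transcript of the bone morphogenetic protein receptor gene BMPR1B. It had 1, 4 and 7 counts in sh718 and 31, 28 and 31 in sh720, against 25, 23 and 32 in shCtrl. The sh718 libraries were far below all the others, which overlapped each other. The fitted log2 change was -2.66 in sh718 (SE 0.37, adjusted p 4.19e-08), while sh720 gave 0.12 (SE 0.23, adjusted p 0.854). BMPR1B itself, whose exons it does not share, changed by 0.16 in sh718 (adjusted p 0.641).

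APCDD1L-DT (ENSG00000231290, chromosome 20, 58515379 to 58619888, plus strand) rose most. It had 51.9, 66.5 and 64.6 CPM in sh718 and 31.8, 18.7 and 22.3 in sh720, against 21.4, 20.3 and 18.5 in shCtrl. Only the sh718 libraries lay apart. On the log2 scale the change was 1.61 in sh718 (SE 0.21, adjusted p 9.45e-09) and 0.28 in sh720 (adjusted p 0.626). Its head-to-head neighbour APCDD1L had 16.5, 31.2 and 21.2 CPM in sh718 and 6.16, 4.16 and 7.76 in sh720, against 5.63, 2.25 and 3.70 in shCtrl, a log2 change of 2.56 in sh718 (SE 0.40, adjusted p 7.27e-07).

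NORAD (ENSG00000260032, chromosome 20, 36045622 to 36050960, minus strand), which holds Pumilio proteins away from their target messenger RNAs, had 469, 417 and 386 CPM in sh718 and 304, 321 and 287 in sh720, against 282, 295 and 291 in shCtrl. The sh718 libraries were higher than all others, and sh720 overlapped shCtrl. The log2 change was 0.55 in sh718 (SE 0.09, adjusted p 6.52e-07) and 0.07 in sh720 (adjusted p 0.739). OIP5-AS1, a cytoplasmic RNA known for binding the microRNA miR-7, had 114, 119.9 and 125 CPM in sh718 and 87.3, 84.2 and 99.9 in sh720, against 90.1, 88.0 and 77.7 in shCtrl, with a log2 change of 0.50 in sh718 (SE 0.13, adjusted p 0.00292). Of the 4 members on the list of cytoplasmic and other characterised lncRNAs (6 of its 18 genes were tested), these 2 rose in sh718, where the median change of the 4 was 0.50. The median of all genes tested in sh718 was 0.00, and 9.56% of them were higher.

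LNCAROD (ENSG00000231131, chromosome 10, 52450874 to 52755409, minus strand), named as an activating regulator of the Wnt antagonist gene DKK1, had 86.0, 97.7 and 82.7 CPM in sh718 and 52.4, 52.0 and 60.1 in sh720, against 49.5, 32.7 and 40.7 in shCtrl. The 3 lines did not overlap, sh718 being the highest and shCtrl the lowest. The fitted log2 change was 1.12 in sh718 (SE 0.16, adjusted p 1.06e-07), while sh720 gave 0.42 (95% interval 0.07 to 0.77, adjusted p 0.154).

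LOXL1-AS1 (ENSG00000261801, chromosome 15, 73908071 to 73928248, minus strand), which overlaps the gene of the collagen crosslinking enzyme LOXL1 on the opposite strand (335 exon bases), had 309, 273 and 266 CPM in sh718 and 530.1, 538 and 509 in sh720, against 446, 503 and 466 in shCtrl. It was the third member by counts, and its sh718 libraries were well below the rest. On the log2 scale the change was -0.74 in sh718 (SE 0.08, adjusted p 5.13e-11) and 0.16 in sh720 (adjusted p 0.250). LOXL1 changed by 0.18 in sh718 (adjusted p 0.450) and by -0.37 in sh720 (adjusted p 0.186). In sh718 against sh720, LOXL1 was higher (0.55, adjusted p 0.00710), while LOXL1-AS1 was lower (-0.90). The LOXL1 call was lost without sh718 library 2 (adjusted p 0.0977) and with DESeq2 (0.0711). FGD5-AS1 had 71.9, 70.5 and 91.1 CPM in sh718 and 146, 125 and 120.2 in sh720, against 116, 123 and 142 in shCtrl, with a log2 change of -0.71 in sh718 (SE 0.14, adjusted p 3.70e-05); its exons share bases with FGD5 and NR2C2 on the opposite strand.

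The other members that rose in sh718 included TP53TG1 (1.14, SE 0.29, adjusted p 0.00228), first found as a p53 target, and AL035071.1 (0.94, SE 0.20, adjusted p 0.000195). MANCR, named for its link to mitosis, rose by 0.48 (adjusted p 0.00271), but not without sh718 library 2 (0.34, adjusted p 0.0673). LINC01151 rose by 0.88 (adjusted p 0.0131), and this call was lost without sh718 library 1 (adjusted p 0.139). SCAT8, an S-phase cancer-associated transcript, rose by 0.74 (adjusted p 0.0422) and lost the call without any sh718 library or shCtrl library 1 or 2 (adjusted p 0.0698 to 0.221), with library totals in place of TMM (0.0530), with no filter on low counts (0.0779) and with only sh718 and shCtrl in the fit (0.0501). Without shCtrl library 3 its change was 1.1. MAP4K3-DT changed by 0.52 in both lines and passed the test only in sh718 (adjusted p 0.0429, against 0.0862 in sh720); its sh718 libraries overlapped shCtrl, and the call was lost without sh718 library 1 or 3, sh720 library 1 or 2, or shCtrl library 2 or 3 (adjusted p 0.0502 to 0.199). It was also lost with library totals (0.0609), no filter (0.0740) and only sh718 and shCtrl in the fit (0.0519).

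The other members that fell in sh718 included VPS9D1-AS1 (-1.36, SE 0.26, adjusted p 5.08e-05), NNT-AS1 (-0.94, SE 0.27, adjusted p 0.00880) and THAP9-AS1 (-0.70, SE 0.24, adjusted p 0.0277). THAP9-AS1 lost its call without sh718 library 2 or shCtrl library 3 (adjusted p 0.178 and 0.234). DESeq2 did not call NNT-AS1 (adjusted p 0.0693), THAP9-AS1 (0.163), LINC01151 (0.0923), SCAT8 (0.207) or MAP4K3-DT (0.192) in sh718.

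In sh720 the largest decrease was that of XACT (ENSG00000241743, chromosome X, 113616300 to 114059289, minus strand), an RNA known to coat active X chromosomes in human pluripotent cells. It had 55.4, 46.4 and 45.6 CPM in sh718 and 19.5, 16.6 and 24.2 in sh720, against 57.4, 57.5 and 62.9 in shCtrl. The sh720 libraries lay below all others. The log2 change was -1.55 in sh720 (SE 0.20, adjusted p 1.91e-08) and -0.28 in sh718 (SE 0.17, adjusted p 0.247).

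SNHG1 (ENSG00000255717, chromosome 11, 62851988 to 62855914, minus strand), the host of several box C/D snoRNAs, had 83.7, 109 and 91.1 CPM in sh718 and 204, 206 and 203 in sh720, against 82.2, 101 and 89.7 in shCtrl. The sh720 libraries stood apart with almost no spread, and sh718 overlapped shCtrl. The fitted log2 change was 1.16 in sh720 (SE 0.12, adjusted p 5.57e-12) and 0.06 in sh718 (SE 0.14, adjusted p 0.806). Its RefSeq start, in the window printed above, lies 224 bases from that of SLC3A2, which encodes the heavy chain shared by several amino acid transporters and is read in the other direction, and their promoter windows share 277 bases. SLC3A2 had 131, 163 and 138 CPM in sh718 and 283, 271 and 258 in sh720, against 144, 174 and 189 in shCtrl. It too was highest in all sh720 libraries, with a log2 change of 0.67 in sh720 (SE 0.10, adjusted p 1.03e-06) and -0.23 in sh718 (SE 0.11, adjusted p 0.146; -0.34 and 0.0445 without shCtrl library 1). In GENCODE v29, small RNA annotations on the same strand, SNORD25 to SNORD28 among them, share 576 bases with SNHG1 exons.

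LINC00632, on chromosome X, whose locus also yields a circular RNA, had 74.2, 58.4 and 192 CPM in sh718 and 230.1, 176 and 173 in sh720, against 66.4, 85.7 and 117 in shCtrl. The third sh718 library lay inside the sh720 range and the other 2 within or below that of shCtrl. On the log2 scale the change was 1.08 in sh720 (SE 0.18, adjusted p 8.04e-06) and 0.25 in sh718 (adjusted p 0.405). Without sh718 library 2 the change in sh718 also passed the test (0.57, adjusted p 0.0165). DESeq2 did not call the change in sh720 (adjusted p 0.259).

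Of the other members called in sh720, most lost the call when 1 library was left out. RAB11B-AS1 changed by 1.18 (SE 0.32, adjusted p 0.0108), AL359764.2 by 1.06 (SE 0.25, adjusted p 0.00306), LINC00909 by 0.76 (SE 0.22, adjusted p 0.0225) and LINC00662 by 0.58 (SE 0.17, adjusted p 0.0186), while ZNF667-AS1 changed by -0.88 (SE 0.25, adjusted p 0.0172). RAB11B-AS1 lost its call without sh720 library 1 or shCtrl library 3 (adjusted p 0.0527 and 0.145) and ZNF667-AS1 without sh720 library 3 or shCtrl library 3 (0.192 and 0.183). LINC00909 lost it without sh720 library 1 or 2 or shCtrl library 1 or 3 (0.0815 to 0.119), and LINC00662 without sh720 library 2 or 3 or shCtrl library 1 or 2 (0.0565 to 0.121). DESeq2 called none of these 4, RAB11B-AS1, ZNF667-AS1, LINC00909 and LINC00662, in sh720 (0.103 to 0.176). RAB11B-AS1 changed by 0.79 in sh718 (adjusted p 0.0923) and passed the test there without sh718 library 3 (1.07, adjusted p 0.0249).

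Of 39 listed snoRNA host genes, 16 were members. In sh718 SNHG6 rose and SNHG15 fell, 2 of 16 where 20.4% of all genes tested passed, and in sh720 SNHG1 rose and DANCR fell, 2 of 16 where 6.85% of all genes tested passed. Changes of the 16 ran from -0.73 to 0.53 in sh718 and from -0.45 to 1.16 in sh720. Their median was 0.05 in sh718 and 0.08 in sh720, against 0.00 for all genes tested. SNHG6 had 192, 202 and 207 CPM in sh718 and 162, 179.9 and 161 in sh720, against 178, 145 and 166 in shCtrl, and its log2 change in sh718 was 0.30 (SE 0.11, adjusted p 0.0363). The sh718 libraries lay above the other lines. This call was lost without sh718 library 2 or 3 or shCtrl library 2 or 3 (adjusted p 0.0743 to 0.188), without a filter on low counts (0.0839), with library totals in place of TMM (0.0671) and with DESeq2 (0.150).

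SNHG15 had 22.4, 35.3 and 23.3 CPM in sh718 and 46.2, 35.4 and 46.5 in sh720, against 41.7, 51.9 and 42.6 in shCtrl. The sh718 libraries were below the rest, library 2 only narrowly so. The log2 change in sh718 was -0.73 (SE 0.21, adjusted p 0.00869), and the call was lost without sh718 library 3 or shCtrl library 2 (adjusted p 0.0572 and 0.0591) and with DESeq2 (0.0752). DANCR, named as an antagonist of differentiation, had 83.7, 101 and 90.1 CPM in sh718 and 82.2, 85.3 and 76.6 in sh720, against 106, 114 and 114 in shCtrl. Both hairpin lines lay below every shCtrl library, but the change passed the test only in sh720 (-0.45, SE 0.13, adjusted p 0.0186; -0.28 and adjusted p 0.123 in sh718). It did not pass without sh720 library 3 or shCtrl library 2 or 3 (adjusted p 0.0645 to 0.103), or with DESeq2 (0.136). The well-known hosts GAS5 (0.17 and -0.01 in sh718 and sh720) and ZFAS1 (0.01 and 0.23) passed the test in neither line, except that ZFAS1 passed in sh720 with library totals in place of TMM (0.27, adjusted p 0.0399). With library totals the near-zero values of ZFAS1 in sh718 (-0.02) and GAS5 in sh720 (0.04) had the other sign.

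**Figure D4:**
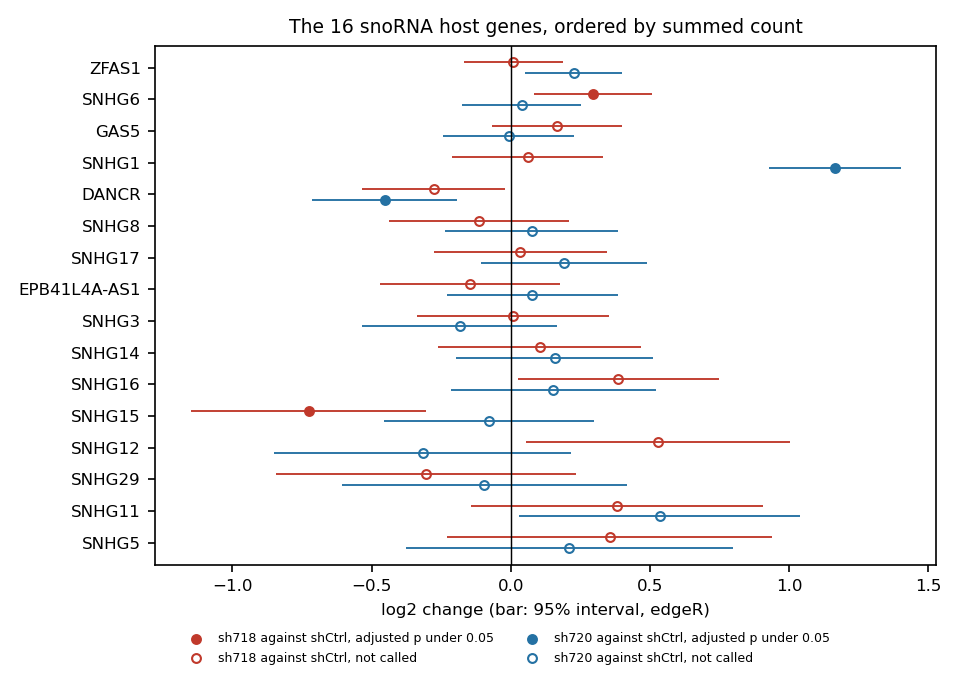
Log2 change with 95% interval (edgeR) of the 16 snoRNA host genes among the members, ordered by summed count, sh718 (red) above sh720 (blue) within each gene; filled points have an adjusted p under 0.05. SNHG1 in sh720 (1.16) lies furthest to the right, and the filled points in sh718 are SNHG6 (0.30) and SNHG15 (-0.73).

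The other lists had few members. Among 4 nuclear-retained lncRNAs MALAT1 alone passed the test, in both lines. NEAT1 had 49.5, 46.4 and 40.3 CPM in sh718 and 27.7, 27.0 and 34.9 in sh720, against 21.4, 49.6 and 30.5 in shCtrl, whose 3 libraries spread over the range of both other lines. It changed by 0.43 in sh718 (adjusted p 0.153) and -0.16 in sh720 (adjusted p 0.771); without shCtrl library 2 the change in sh718 passed the test (0.78, adjusted p 0.0151). Of 5 microRNA hosts only MIR100HG passed, of 3 members on the list of prostate cancer lncRNAs only MALAT1, and of 2 p53-linked members only TP53TG1, in sh718. For comparison, 20.4% of all genes tested passed in sh718 and 6.85% in sh720. The single hypoxia-linked member was NEAT1, and none of the 16 listed lncRNAs of the HOX clusters was a member, although 14 were in the table and 1 had enough counts to be tested.

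Genes of the proteins that package or degrade such RNAs were measured beside them, and their counts stand against 20.4% of all genes tested in sh718 and 6.85% in sh720. Of 12 paraspeckle protein genes, NONO rose (0.27) and HNRNPK, HNRNPH3, CPSF7 and NUDT21 fell in sh718, NUDT21 by 1.58 (adjusted p 7.64e-08) and HNRNPH3 by 0.65 (adjusted p 1.30e-05). HNRNPK (-0.24) lost its call without sh718 library 1 or 3, sh720 library 3 or any shCtrl library (adjusted p 0.0501 to 0.360), CPSF7 (-0.65) without sh718 library 1 or shCtrl library 3 (0.0980 and 0.107), and NONO without sh718 library 2 or shCtrl library 3 (0.0714 and 0.0674). DESeq2 did not call HNRNPK (0.174) or CPSF7 (0.121). Of 8 snoRNP protein genes SNU13 rose and NHP2 and NOP10 fell in sh718. SNU13 lost its call without sh718 library 2 (adjusted p 0.0628), NHP2 without sh718 library 2 or 3 or shCtrl library 2 (0.0551 to 0.112) and NOP10 without sh718 library 3 or shCtrl library 2 (0.264 and 0.250). DESeq2 called none of these 3 snoRNP genes in sh718 (0.0663 to 0.124). Of 13 nonsense-mediated decay factors, UPF1, the central helicase of that pathway, rose by 0.59 in sh718 (adjusted p 0.000923) and SMG9 by 0.80 (adjusted p 0.0105, and 0.0983 without shCtrl library 3), while EIF4A3 fell by 0.45 in sh720 (adjusted p 0.0185, and 0.0680 to 0.0911 without sh720 library 2 or 3 or shCtrl library 3). Without sh718 library 2 or 3, EIF4A3 also fell in sh718 (adjusted p 0.0330 and 0.0363). DESeq2 did not call SMG9 in sh718 (0.0900) or EIF4A3 in sh720 (0.125). Of 20 genes of the nuclear exosome and its adaptors, EXOSC7 (-0.61) and RBM7 (-1.33) fell in sh718 and SRRT (-0.64) fell in sh720.

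Setting the hairpin lines against each other, 18 members were higher in sh718 and 18 were higher in sh720 (33.6% in all), against 25.3% of all genes tested (12.3% higher and 13.0% lower in sh718) and 29.4% of those with 150 or more counts. The libraries of sh718 and sh720 did not overlap for 42 members (39.3%), against 37.0% of all genes tested. Of the 36 called, 10 differed by 2-fold or more, as did 6.26% of all genes tested. BMPR1B-DT (-2.78, SE 0.36, adjusted p 4.74e-09), LINC01721 (-2.49, SE 0.31, adjusted p 1.13e-09), AC078820.3 (-1.59, SE 0.31, adjusted p 5.36e-05) and SNHG1 (-1.10, SE 0.12, adjusted p 9.40e-12) were lower in sh718, and APCDD1L-DT (1.33, SE 0.20, adjusted p 2.52e-07), SCAT8 (1.28, SE 0.29, adjusted p 0.000474) and XACT (1.27, SE 0.21, adjusted p 2.87e-06) were higher in sh718. AC078820.3, with 7.07, 8.06 and 13.8 CPM in sh718, 33.9, 35.4 and 19.4 in sh720 and 16.9, 13.5 and 21.3 in shCtrl, passed the test against shCtrl in neither line, but did in sh718 without sh718 library 3 (-1.19, adjusted p 0.0402), and likewise in sh720 once its library 3 was left out (0.98, adjusted p 0.0259).

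Members were also set beside their coding partners, 52 pairs in which both genes were tested. In 20 pairs that start head to head and share no exon, 6 members and 5 partners passed the test in sh718 and 3 members and 3 partners in sh720. In 28 pairs that share exon bases on opposite strands, the member passed in 3 and the partner in 9 in sh718. In sh720 the member passed in 3 of these pairs and the partner in 4. RAB11B-AS1 is counted there with both ANGPTL4 and RAB11B. In 4 pairs that share exon bases on the same strand, 1 member and 3 partners passed in sh718, in no pair together. None of these genes passed in sh720. Of all genes tested, 20.4% passed in sh718 and 6.85% in sh720. Among the head-to-head pairs, both genes passed in the same direction for APCDD1L-DT with APCDD1L in sh718 and SNHG1 with SLC3A2 in sh720; both pairs kept their calls with each library left out. Among the opposite-strand pairs, NNT-AS1 and NNT, which encodes the mitochondrial transhydrogenase, both fell in sh718 (-0.94 and -1.22), and NNT lost its call without sh718 library 2 or shCtrl library 2 (adjusted p 0.0830 and 0.125). DESeq2 called neither NNT-AS1 (0.0693) nor NNT (0.0872) in sh718. SSTR5, beside SSTR5-AS1, changed by -0.51 in sh718 (adjusted p 0.235) and -0.88 in sh720 (adjusted p 0.0722).

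**Figure D5:**
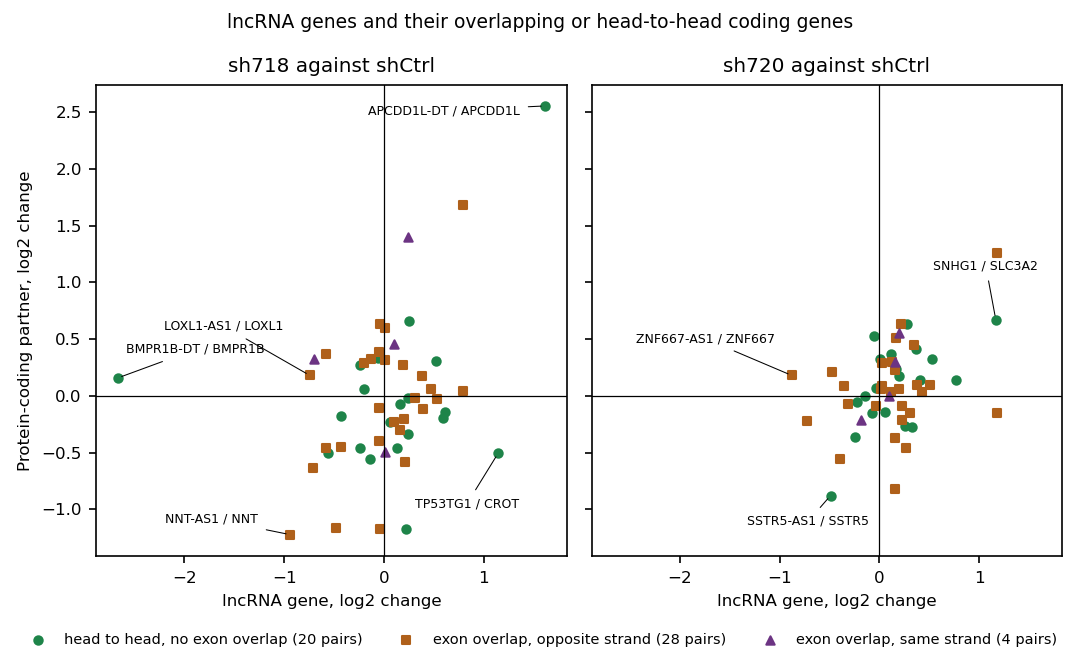
Log2 change of 52 coding partners (vertical axis) against that of the lncRNA member (horizontal axis), for sh718 (left) and sh720 (right) against shCtrl; each point is a pair, its shape and colour giving how the genes lie. APCDD1L-DT with APCDD1L (1.61 and 2.56) lies at the upper right in sh718, SNHG1 with SLC3A2 (1.16 and 0.67) at the right in sh720, and BMPR1B-DT with BMPR1B (-2.66 and 0.16) at the far left in sh718.

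Of the 23 members called in sh718, 20 had 5 or more other tested genes within 2 Mb, and for 8 of the 20 the median change of these neighbours had the member's sign. In sh720 it did for 4 of 9. Over all genes tested in sh718, 9.56% were higher and 10.8% lower. Among the 14 other tested genes within 2 Mb of NNT-AS1, the median change in sh718 was -0.68, and 7 of them fell. For FGD5-AS1 the 21 neighbours had a median of -0.47, with 7 lower, and for MANCR the 11 neighbours had a median of 0.50, with 5 higher and 1 lower. NORAD's 41 neighbours had a median of 0.27, with 13 higher and 1 lower. Other members differed from their neighbours: around LOXL1-AS1, which fell, 5 of 26 were higher, and around APCDD1L-DT, which rose, 4 of 17 were lower and 2 higher. The 91 neighbours of MALAT1 had a median of -0.23 in sh718, with 24 lower and 3 higher, while MALAT1 rose. SNHG1, too, rose in sh720 where its 60 neighbours had a median of -0.03, with 4 higher and 3 lower. No test was made of these medians.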

How the data were processed

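The deposited table holds gene counts for 3 PC3-Luc lines, 3 numbered columns a line, taken here as libraries. The authors' reads (75 bp, single, per the labels) were trimmed with Trim Galore and placed on GRCh38, per the submitters' processing notes; the sources used here do not give the aligner, the counter, its strand setting or its annotation. Genes with 60 or more counts over the 9 libraries (9556) were tested with edgeR 4.0.16 (quasi-likelihood, TMM, 1 model for all libraries, R 4.3.3), and p-values were adjusted by Benjamini-Hochberg over all genes tested. A call is an adjusted p under 0.05. CPM values are TMM-scaled, and ± is the SD. DESeq2 1.42.0, other scalings and filters, a replicate block and leaving out each library were alternatives. The test was run on simulated counts first. The total counts per library, 883663 to 1108960, limit the precision for members near 150 counts. GENCODE v29 (21258 of 21726 identifiers matched) gave positions, and RefSeq GRCh38.p14 gave promoters and microRNAs.

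The members and lists were chosen with earlier results of these data known. Members were named if they were among the 10 with the highest count, were called in both lines, were among the 6 highest or 6 lowest called in a comparison by the interval bound nearest to no change, led a list, or lay at the threshold. MANCR, MAP4K3-DT, THAP9-AS1, LINC00662, AC093673.1, KCNQ1OT1 and the partner and list protein genes were named after their values were seen. Same-numbered libraries did not deviate together, so no pairing was used. Some items are not reported here, though counts of members called include them.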

Additional observations from a re-analysis of the deposited data

Results flagged for a closer look

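The changes in sh718 and sh720 differed for 28 of the named members by the direct edgeR quasi-likelihood test of sh718 against sh720 (Benjamini-Hochberg adjusted p under 0.05). Some were named because they were called in this same comparison, so their number does not tell how often members differ. Among all 107 members 33.6% passed this test, against 25.3% of all genes tested and 29.4% of those with 150 or more counts. Values are log2 differences, positive where sh718 was higher. Higher in sh718 were APCDD1L-DT (1.33), SCAT8 (1.28), XACT (1.27), TMEM161B-AS1 (0.94), AL035071.1 (0.89), LINC01116 (0.89), SNHG12 (0.85), ZNF667-AS1 (0.83), TP53TG1 (0.82), LNCAROD (0.70), NEAT1 (0.59), MANCR (0.53), NORAD (0.48) and OIP5-AS1 (0.40). Lower in sh718 were BMPR1B-DT (-2.78), LINC01721 (-2.49), AC078820.3 (-1.59), SNHG1 (-1.10), NNT-AS1 (-1.10), AL359764.2 (-1.05), LINC00909 (-1.0), LOXL1-AS1 (-0.90), LINC00662 (-0.88), VPS9D1-AS1 (-0.86), LINC00632 (-0.83), THAP9-AS1 (-0.79), FGD5-AS1 (-0.74) and SNHG15 (-0.65).

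Leaving out 1 library ended some of these calls. NEAT1 lost its call without sh718 library 1 or 2 or sh720 library 1 or 2 (adjusted p 0.0769 to 0.120), TP53TG1 without sh718 library 2 or 3 or sh720 library 1 or 3 (0.0524 to 0.111) and SNHG15 without sh718 library 1 or 3 or sh720 library 1 or 3 (0.0726 to 0.0934). OIP5-AS1 lost it without sh718 library 3 or sh720 library 1 or 2 (0.0534 to 0.0725) and VPS9D1-AS1 without sh718 library 3 or sh720 library 2 or 3 (0.0550 to 0.0799). ZNF667-AS1 lost it without sh718 library 3 or sh720 library 3 (0.130 and 0.117), THAP9-AS1 without sh718 library 2 (0.0788), and LINC01116 and SNHG12 without sh720 library 2 (0.0745 and 0.0551). The difference of LINC00632 was -0.51 without sh718 library 2 and -1.55 without sh718 library 3, and that of AL359764.2 was -0.70 without sh718 library 2.

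DESeq2 did not call 10 of these differences: LINC00632 (adjusted p 0.285), NEAT1 (0.168), TP53TG1 (0.139), SNHG15 (0.115), VPS9D1-AS1 (0.0934), OIP5-AS1 (0.0880), ZNF667-AS1 (0.0702), THAP9-AS1 (0.0676), SNHG12 (0.0615) and LINC01116 (0.0594). With library totals in place of TMM, NEAT1 (0.0706) and OIP5-AS1 (0.0522) were not called either.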

How the results depend on the processing

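With each library left out in turn, members called in sh718 numbered 11 to 13 higher and 8 to 11 lower, in sh720 5 to 8 higher and 2 to 5 lower, and in sh718 against sh720 12 to 18 higher and 15 to 19 lower; 1 to 2 were higher and 1 to 2 lower with both hairpins, and 0 to 1 moved in opposite directions. DESeq2 called 8 higher and 6 lower in sh718, 3 higher and 2 lower in sh720 and 9 higher and 12 lower in sh718 against sh720, with 1 lower with both hairpins and 0 in opposite directions. With library totals in place of TMM, or with no filter on low counts, 1 was lower with both hairpins. Asking for 1.5-fold left 7 higher in sh718 and 2 lower in sh720, with 0 higher and 0 lower with both hairpins. Among members with 300 or more counts, 5 were lower in sh718, 4 higher in sh720, and 10 higher and 6 lower in sh718 against sh720, with 0 in opposite directions. Among lncRNA genes with 60 or more counts, 23 were higher and 18 lower in sh718, 8 lower in sh720, 32 higher and 28 lower in sh718 against sh720, and 2 moved in opposite directions. Among the members that share no exon with another gene, 6 were higher and 2 lower in sh718, 2 higher and 1 lower in sh720, 8 higher and 5 lower in sh718 against sh720, and 0 were higher and 0 lower with both hairpins. The last 3 settings change which genes are counted; for the others the cause was not tested. Without MALAT1 the members' share of counts was 0.584% in sh718, 0.648% in sh720 and 0.583% in shCtrl. Of 2208 recomputed values of named members, 2089 stayed on their side of the threshold, 107 lost a call and 12 gained one. Those that stayed include many results that were not called in the first place, so their share is no measure of how firm the calls are. DESeq2 alone ended 27 calls, while RLE size factors left all 138 results on their side. No called value changed sign, while 46 values of 20 results that passed the test neither way did; ZFAS1 in sh718 and GAS5 in sh720 were among them.

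With a replicate block, 13 members were higher and 10 lower in sh718, 8 higher and 5 lower in sh720, and 18 higher and 20 lower in sh718 against sh720. The libraries share only a number (correlation of same-numbered libraries -0.0127 to 0.0219), so the block is no pairing.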
